A study of Mus musculus with 6 samples.

Results

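The Clcn5-intron cluster is a run of 5 microRNA (miRNA) genes, Mir500, Mir501, Mir362, Mir188 and Mir532, on the mouse X chromosome. Its array names were those with the stem miR-188, miR-362, miR-500, miR-501 or miR-532, either arm, detected or not. This gave 9 of the 690 mouse miRNA names on the array. miR-652-3p, from an X-linked gene outside the cluster, was added as a contrast, which makes 10 names in all. On the array each name carries the prefix mmu-, as in mmu-miR-362-3p and mmu-miR-362-5p, the arms of Mir362, and the prefix is left off below. The array has no name for miR-500-5p or miR-652-5p, and the neighbour miR-660 was not analysed here.

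Total RNA of 6 sorted cell preparations from transgenic SMA-GFP mice was hybridised to 1-colour arrays, 1 preparation an array. Cells of both groups lacked CD45, a marker of blood cells, and CD31, a marker of endothelium. The wound group was 3 preparations of GFP-high cells, labelled myofibroblasts and taken 7 days after injury, on arrays 3, 4 and 6. The skin group was 3 preparations of GFP-low cells, labelled fibroblast-like and taken from dermis, on arrays 1, 2 and 5. The transgene drives GFP from smooth muscle actin (SMA) sequence, so the gate itself picks cells by activity of a contractile-cell gene. Tissue, injury and GFP level differ together between the groups and cannot be told apart. Strain, sex, age and the number of animals are not given in the sources used here, so the spread behind each p-value is that between the 3 preparations of a group and may be technical. Because the arrays read bulk RNA, fewer cells that make a miRNA and less of it per cell cannot be told apart.

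Of 5 fibroblast and mesenchymal marker miRNAs, 5 were well above background on all wound arrays and 4 on all skin arrays. Of 7 epithelial markers, 0 were above background on all wound arrays and 2, miR-203-3p and miR-205-5p, on all skin arrays. The summed epithelial level, in units of the scaled signal defined below, was 0.177 on every wound array, where each marker lay at the floor, and 0.221 to 0.297 on skin arrays. The defining miR-200 family members and miR-141-3p were at the floor on every array. The part of these epithelial markers in the results below was not tested. All 5 blood markers lay at the floor on all arrays, although miR-451a had a probe above background on 2 skin arrays. Of the endothelial pair, miR-126-3p was above background on every array and miR-126-5p on none. All 3 striated muscle markers were below background throughout. Depth on an array is its signal over background. The 75th percentile used for scaling was 786, 1095 and 1136 intensity units on wound arrays, against 1487, 1244 and 1772 on skin arrays, with a local background of 49.0 to 55.5.

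An intronic miRNA is cut as a hairpin from the transcript of its host gene, and the hairpin then gives a mature miRNA from its 5p arm, its 3p arm or both. Bases 2 to 8 of the mature miRNA, the seed, pair with target messages, so miRNAs that share a seed can share targets. Clcn5 encodes ClC-5, a chloride-proton exchanger of endosomes known for its role in the kidney. In mouse, miR-188 is known from bone marrow stromal cells, where it shifts the balance between bone and fat formation, and miR-501 is known from activated muscle progenitor cells. miR-362-5p is known in human tumour cells as a repressor of CYLD, a deubiquitinase that restrains NF-kappaB signalling.

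In the RefSeq annotation of build GRCm38.p6 the hairpins lie on the minus strand at chrX:7237683-7237774 (Mir500), chrX:7241243-7241351 (Mir501), chrX:7241982-7242046 (Mir362), chrX:7247989-7248056 (Mir188) and chrX:7248402-7248497 (Mir532). All lie within the span of Clcn5, on its strand, over 10815 bases. Mir501 and Mir362 are separated by 630 bases and Mir188 and Mir532 by 345, while 3468 bases part Mir500 from Mir501 and 5942 part Mir362 from Mir188. Mir652 lies on the plus strand at chrX:142739000-142739097, within the span of Tmem164, 135 Mb from the cluster. The array files carry no coordinates, and their design header names build mm9.

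The mature sequences below, from RefSeq, are those of the cluster and the contrast, shown because the seeds group the members across precursors. They run 5′ to 3′ and capitals mark the seed. RefSeq's table matched 9 of the 10 names, miR-532-5p being the exception.
miR-188-5p: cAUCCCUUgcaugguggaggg
miR-188-3p: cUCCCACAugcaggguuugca
miR-362-5p: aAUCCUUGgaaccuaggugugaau
miR-362-3p: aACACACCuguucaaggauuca
miR-500-3p: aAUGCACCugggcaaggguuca
miR-501-5p: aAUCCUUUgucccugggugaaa
miR-501-3p: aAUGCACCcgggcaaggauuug
miR-532-3p: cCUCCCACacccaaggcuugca
miR-652-3p: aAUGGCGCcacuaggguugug

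miR-500-3p and miR-501-3p have the same seed and are identical at 18 of 22 bases. Counted from the 5′ end, the differences of miR-501-3p from miR-500-3p are U9C, G18A, C21U and A22G. miR-362-3p has the seed of miR-329-3p, a miRNA of the Dlk1-Dio3 domain on chromosome 12, but outside the seed they diverge and 12 of 22 bases are identical.
miR-329-3p: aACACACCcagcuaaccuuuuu

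The hairpin of Mir362 is shown because it is the only one of the cluster with both arms tested here. Capitals mark the 5p arm and then the 3p arm.
Mir362: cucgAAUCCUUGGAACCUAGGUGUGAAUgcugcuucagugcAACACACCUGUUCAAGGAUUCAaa

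At the scaling used for the main comparison, 4 cluster miRNAs were higher in wound than in skin cells, by 1.35-fold to 1.91-fold. They were miR-188-5p, miR-362-3p, miR-500-3p and miR-532-5p. Over all 222 tested miRNAs 64.9% were called at this scaling, 44.1% as higher in wound. The call of miR-362-3p, which had the largest fold, is a description, because it was above background on all arrays of the wound group only. The median over all tested miRNAs was also higher in wound, by 0.38 on the log2 scale, and under each of 4 other scalings none of the 4 passed the test. The brightest probe for miR-362-5p was well above background on 3 of 3 wound arrays and on 0 of 3 skin arrays, before any scaling. The other 4 cluster names, miR-188-3p, miR-501-5p, miR-501-3p and miR-532-3p, stayed below that limit on all 6 arrays. miR-652-3p did not pass the test.

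A level below is the log2 of the processed signal, averaged over the spots and probes of a miRNA, relative to the 75th percentile on that array of the probes detected on all 6 arrays. Low values were raised to a floor of -5.30, which compresses differences of dim miRNAs. A probe was well above background where the scanner flagged more than 50% of its spots as such, and a miRNA was tested if this held for a probe on all 3 arrays of a group. Levels of different miRNAs are not comparable, because probes differ. Of the 9 cluster names 5 were tested, 3 of them above background on all 6 arrays. miR-362-3p and miR-362-5p passed the filter only through the wound group.

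miR-188-5p stood at -3.69, -3.04 and -3.30 on wound arrays 3, 4 and 6, against -3.91, -4.28 and -4.19 on skin arrays 1, 2 and 5. All wound values lay above all skin values, with wound array 3 close to skin array 1. The log2 difference, wound minus skin, was 0.78 ± 0.20 (SE, n = 3 each), with a limma adjusted p of 0.0200. The 4 probes for miR-188-5p gave differences of 0.73 to 0.81. Without skin array 2, skin array 5 or wound array 6 the limma adjusted p became 0.0702, 0.0662 and 0.0645, with differences of 0.70, 0.75 and 0.76.

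miR-362-3p stood at -3.85, -4.24 and -4.16 on wound arrays 3, 4 and 6. On skin arrays 1, 2 and 5 it stood at -4.77, at the floor of -5.30 and at -4.98. The groups did not overlap, and skin array 2 was the only one on which miR-362-3p was below background. Its difference of 0.93 ± 0.18 (SE, n = 3 each), with a limma adjusted p of 0.00725, holds this floored value. Because it entered the test only through the wound group, its call is a description: with no filter on dim miRNAs, and 690 names in the adjustment, the limma adjusted p was 0.0508. In that fit the limma adjusted p was 0.119 for miR-188-5p, 0.0496 for miR-500-3p and 0.00451 for miR-532-5p.

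miR-500-3p stood at -3.17, -3.25 and -3.29 on wound arrays 3, 4 and 6, against -3.73, -3.76 and -3.50 on skin arrays 1, 2 and 5. The wound values were tightly grouped and all above the skin values. The difference was 0.43 ± 0.08 (SE, n = 3 each), with a limma adjusted p of 0.00811. Its probes disagreed: A_54_P4410 gave a difference of 0.56 with a limma adjusted p of 0.00209, and A_54_P2945 gave 0.13 with 0.446, in a fit over 402 single probes of which 67.4% were called. With the scanner's total signal per miRNA in place of the mean over probes, the difference of miR-500-3p was 0.27 with a limma adjusted p of 0.140.

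miR-532-5p stood at -4.30, -4.40 and -4.28 on wound arrays 3, 4 and 6, against -4.93, -5.08 and -5.11 on skin arrays 1, 2 and 5. The gap between the groups was wider than the spread within either. The difference was 0.71 ± 0.07 (SE, n = 3 each), with a limma adjusted p of 0.000484. The levels average 2 probes, of which A_54_P2782 was below background on all arrays. A_54_P2783 alone gave a difference of 0.68.

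miR-652-3p, the contrast outside the cluster, stood at -2.48, -2.52 and -2.66 on wound arrays 3, 4 and 6, against -3.09, -2.56 and -2.71 on skin arrays 1, 2 and 5. The groups overlapped, and skin array 1 was lower than the other 5 arrays. The difference of 0.24 ± 0.15 (SE, n = 3 each) had a limma adjusted p of 0.233 and a 95% interval of -0.16 to 0.63. Without skin array 1 it was 0.083, with a limma adjusted p of 0.448.

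**Figure D1:**
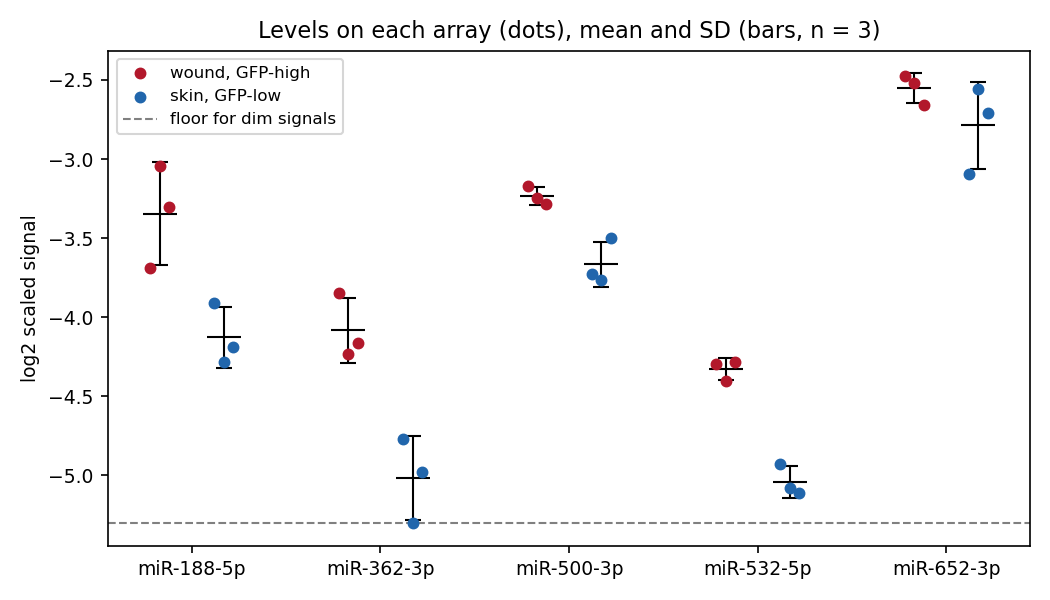
Log2 scaled signal of the 4 called cluster miRNAs and miR-652-3p on each array (dots; wound in red, skin in blue), with mean and SD of 3 arrays and the floor as a dashed line. Wound and skin dots do not overlap for the 4 cluster miRNAs and overlap for miR-652-3p.

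Of the 5 tested cluster names 4 were called higher and 0 lower. These 5 hold miR-362-3p, whose call is a description, and miR-362-5p, which lay at the floor throughout and could not be called. In a fit of only the 156 miRNAs above background on all arrays 96 were called, 59 of them as higher. Those called higher included the 3 cluster names in that fit. Over all 222 tested miRNAs 64.9% were called, 44.1% as higher and 20.7% as lower. The groups did not overlap for 4 cluster names, all higher in wound. Of all tested miRNAs the groups did not overlap for 69.8%, of which those higher in wound made 48.6% of all tested. The median difference over the 5 names was 0.71, beside 0.38 over all tested miRNAs. Relative to that median the differences were 0.40 for miR-188-5p, 0.55 for miR-362-3p, 0.05 for miR-500-3p, 0.33 for miR-532-5p and -0.14 for miR-652-3p. Ranked from the largest rise down, miR-362-3p was 66th, miR-188-5p 75th, miR-532-5p 79th, miR-500-3p 105th and miR-652-3p 120th.

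**Figure D2:**
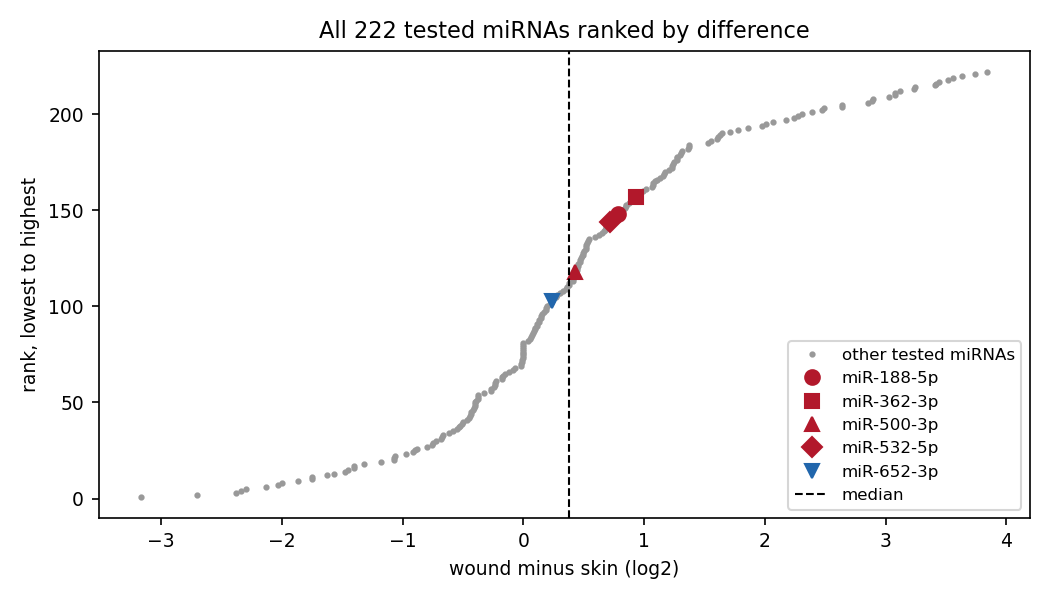
Wound minus skin log2 difference (x axis) of the 222 tested miRNAs by rank from lowest to highest (y axis), with the 4 called cluster miRNAs and miR-652-3p marked and the median of 0.38 as a dashed line. The cluster miRNAs lie between 0.43 and 0.93 and miR-652-3p below the median.

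The calls depended on the scaling. Moving from the main scaling to the 75th percentile of all probes shifted the median of all tested miRNAs by -0.57. The shift was -0.38 with median scaling, -0.38 with quantile normalization and -0.46 without scaling. The number of cluster miRNAs called was 0 under each of these, and 0 at an unadjusted limma p under 0.05. Over all tested miRNAs the share called was 57.7%, 59.5%, 61.7% and 48.6% under these settings in the same order. The share called as higher was 23.4%, 29.7%, 31.5% and 24.3%, and the share called as lower was 34.2%, 29.7%, 30.2% and 24.3%.

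miR-362-3p and miR-188-5p, whose differences were 0.32 to 0.54 and 0.08 to 0.37 under the other scalings, stayed positive throughout. So did miR-532-5p, at 0.02 to 0.31. miR-500-3p changed sign, at -0.26 to 0.02, and miR-652-3p lay at -0.45 to -0.17. Intervals were wide: under median scaling the 95% interval of miR-532-5p was -0.06 to 0.67 and that of miR-362-3p was -0.11 to 1.19. The interval of miR-652-3p lay below 0 with scaling to all probes (-0.86 to -0.04) and with quantile normalization (-0.61 to -0.04). Its limma adjusted p was 0.0646 and 0.0536 there. Under median scaling and without scaling its interval included 0. Set against the median of all tested miRNAs under the same scaling, the difference over all 5 scalings was 0.32 to 0.55 for miR-362-3p and 0.08 to 0.40 for miR-188-5p. It was 0.02 to 0.33 for miR-532-5p, -0.19 to 0.05 for miR-500-3p and -0.32 to -0.14 for miR-652-3p.

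**Figure D3:**
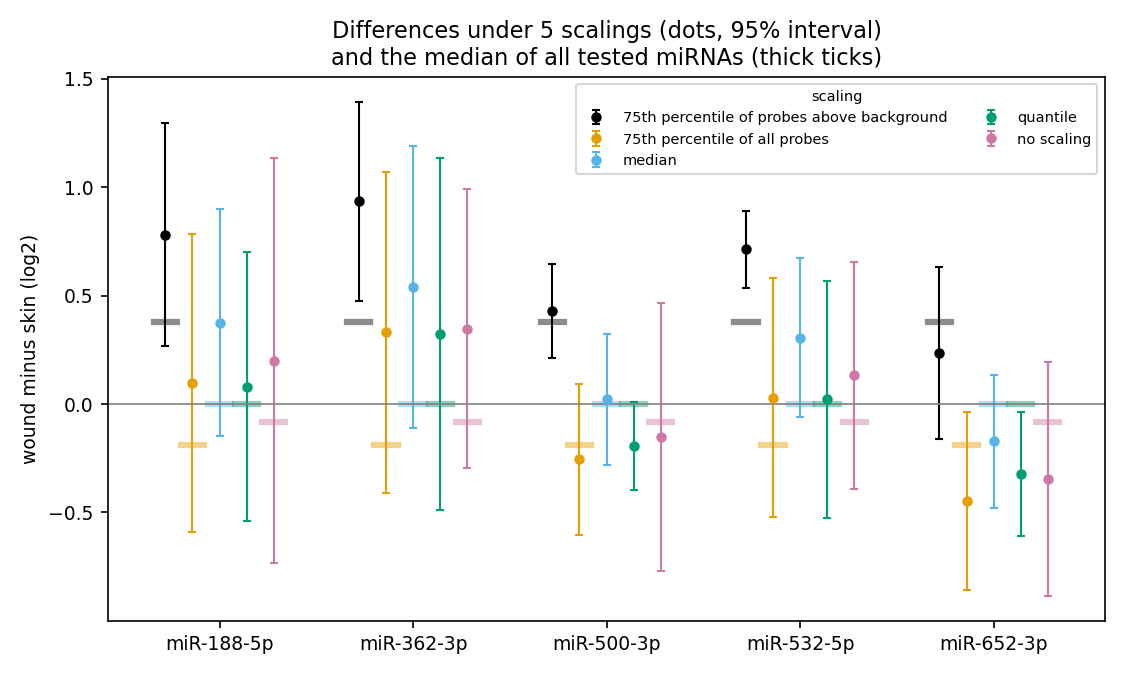
Wound minus skin log2 difference of 5 miRNAs under 5 scalings (dots with 95% intervals), with the median of all tested miRNAs under the same scaling as thick ticks. Intervals of the 4 cluster miRNAs clear 0 under the main scaling, in black, and include 0 under the other 4.

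Before scaling, the groups overlapped for these 4 miRNAs. miR-532-5p read 40.0, 51.7 and 58.5 intensity units on wound arrays, against 48.9, 36.7 and 51.2 on skin arrays. miR-188-5p read 60.8, 133 and 115 on wound arrays, against 98.9, 63.8 and 97.3 on skin arrays. In both cases the groups were interleaved.

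miR-362-3p read 54.6, 58.2 and 63.4 on wound arrays, against 54.5, 23.9 and 56.2 on skin arrays, where array 2 was the low one. miR-500-3p read 87.3, 115 and 117 on wound arrays, against 112, 91.6 and 157 on skin arrays.

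The arrays lay in 2 rows of 1 slide. Row 1 held 1 wound and 2 skin arrays and row 2 held 2 wound and 1 skin array, which leaves the values within a row as a description. With the row as a block in the fit the 4 miRNAs were still called, with limma adjusted p of 0.00184 to 0.0468. That fit called 140 of the 222 tested miRNAs, 97 as higher and 43 as lower. The difference was 1.19 in row 1 and 0.78 in row 2 for miR-362-3p, and 0.71 and 0.77 for miR-532-5p. It was 0.41 and 1.01 for miR-188-5p, 0.57 and 0.23 for miR-500-3p, and 0.35 and 0.12 for miR-652-3p. The median of all tested miRNAs was 0.35 and 0.36.

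The 5p arm of Mir362 was well above background on wound arrays only. It entered the test through the wound group, so the values below are a description, and the brightest of its 4 probes is named first. Probe A_54_P2672 for miR-362-5p read 38.7, 53.3 and 52.2 intensity units on wound arrays 3, 4 and 6, with an SD over spots of 6.92, 6.65 and 3.58. On skin arrays 1, 2 and 5 it read 12.1, 9.69 and 15.7. Of its 5 spots, 4, 5 and 5 were flagged above background on wound arrays and 0 on every skin array. The unscaled signals of this probe did not overlap between the groups. The share of all probes for which this held is not given here. Names with a probe above background numbered 211, 233 and 218 on wound arrays 3, 4 and 6. On skin arrays 1, 2 and 5 they numbered 187, 193 and 224.

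No skin array measured this probe, so its fold is a bound: the wound mean over a skin mean in which each array enters with its faintest detected signal, or the probe's own signal where that is larger. The probe was at least 2.14-fold higher in wound cells, at least 1.33-fold with scaling to all probes and at least 1.43-fold without scaling. No p-value is given, because its skin values all lie at the floor and their spread was not measured.

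Probe A_54_P2671 for miR-362-5p read 21.3, 33.2 and 31.9 on wound arrays, above background on 1 of them, against 8.46, 0.159 and 7.29 on skin arrays. The other 2 probes for miR-362-5p read below 1 intensity unit on every array. The mean over all 4 probes lay at the floor on all 6 arrays, and so the difference of miR-362-5p in the main comparison was 0 by construction. The scanner's total signal for miR-362-5p was 17.2, 25.3 and 24.3 on wound arrays, against 0.1 on each skin array, the value it also gives to miR-188-3p, a name below background throughout.

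**Figure D4:**
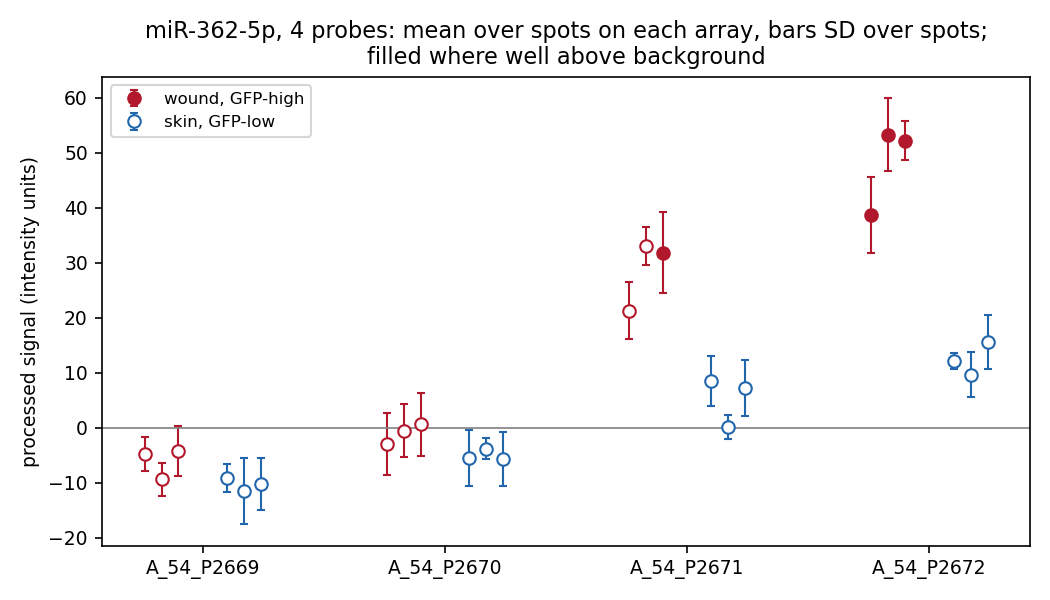
Processed signal (intensity units) of the 4 probes for miR-362-5p on each array, wound in red and skin in blue, as mean and SD over spots, filled where the probe was well above background. For A_54_P2672 the wound arrays read 38.7 to 53.3 and the skin arrays 9.69 to 15.7.

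miR-501-3p, which has the seed of miR-500-3p, read below background with all 4 of its probes on every array, with mean probe signals of -7.90 to -2.25 intensity units in wound and -7.41 to -3.61 in skin. Both arms of Mir501 were therefore undetected, while Mir500 was measured through miR-500-3p. The 3p arms of Mir188 and Mir532 were likewise undetected: the highest mean probe signal was that of A_54_P2787 for miR-532-3p, at 20.0 ± 4.53 in wound and 21.9 ± 1.91 in skin (SD, n = 3 each). The lowest signal that counted as well above background was 27.5 to 31.9 on wound arrays and 31.8 to 35.9 on skin arrays, so differences of these names were not detectable at this signal.

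miR-329-3p, which has the seed of miR-362-3p, stood at -1.52, -1.55 and -1.60 on wound arrays 3, 4 and 6, against -4.63, -4.61 and -4.64 on skin arrays 1, 2 and 5. Its difference was 3.07 ± 0.04 (SE, n = 3 each) with a limma adjusted p of 5.3e-07. It was called higher under all 5 scalings, at 2.39 to 3.07, where miR-362-3p was called under 1.

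A ratio of signals on the same array does not depend on scaling by a constant. The 3 cluster miRNAs above background on all arrays were therefore set against miR-652-3p. The log2 ratio of miR-532-5p to miR-652-3p was -1.82, -1.88 and -1.62 on wound arrays 3, 4 and 6, against -1.83, -2.52 and -2.40 on skin arrays 1, 2 and 5. Skin array 1 lay among the wound arrays and the other 2 skin arrays below them.

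The ratio was 0.48 ± 0.22 higher in wound (SE, n = 3 each), with a 95% interval of -0.03 to 0.98, a limma adjusted p of 0.104 and an exact two-sided permutation p of 0.2. For miR-188-5p it was 0.55 ± 0.29 higher, with an interval of -0.13 to 1.23, a limma adjusted p of 0.159 and an exact permutation p of 0.2. For miR-500-3p it was 0.19 ± 0.19 higher, with an interval of -0.24 to 0.63, a limma adjusted p of 0.424 and an exact permutation p of 0.3. The smallest exact p for 3 against 3 arrays is 0.1. In the same fit 47.1% of 155 tested miRNAs were called, 20.6% as higher, and 0 of these 3. Leaving out skin array 1, on which miR-652-3p was low, brought 2 of the ratios past the threshold: miR-188-5p at 0.81 with a limma adjusted p of 0.0327, and miR-532-5p at 0.69 with 0.00756. The share of all miRNAs called in that fit is not given here. Leaving out any other array brought no ratio past the threshold. Without skin array 2 miR-188-5p was at 0.35 with a limma adjusted p of 0.356, and miR-532-5p at 0.34 with 0.231.

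**Figure D5:**
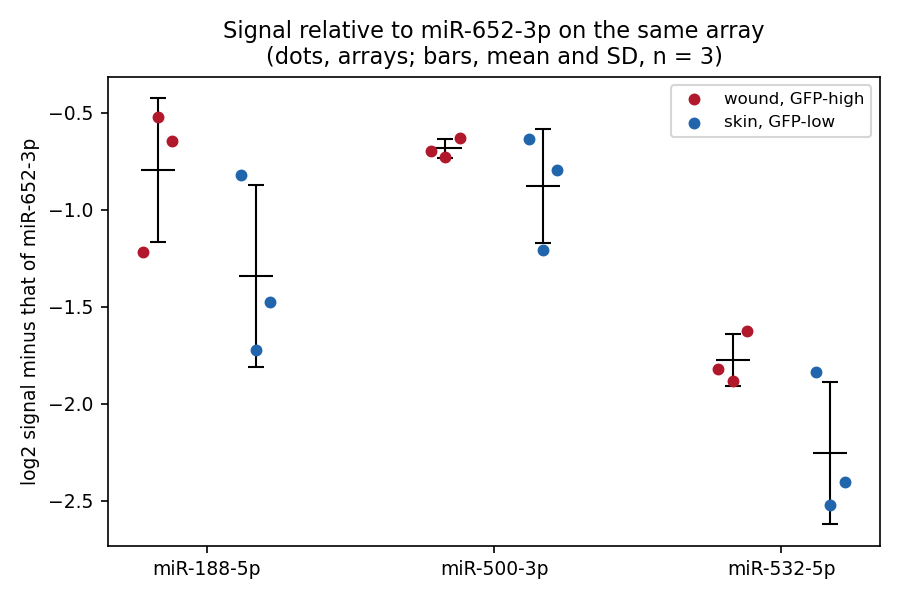
Log2 signal of 3 cluster miRNAs minus that of miR-652-3p on the same array (dots; wound in red, skin in blue), with mean and SD of 3 arrays. The skin array with the highest ratio reaches into the wound values for all 3 miRNAs.

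The rest of the X chromosome gives a wider frame. Of 74 other X-linked names on the array 12 were tested, of which 8 were called higher and 2 lower under the main scaling, with a median difference of 0.56. Over all tested miRNAs 44.1% were called higher and 20.7% lower under that scaling, with a median of 0.38. Under the other scalings 3 to 4 X-linked names were called higher and 2 to 3 lower. Their median was -0.03 with scaling to all probes, 0.21 with median scaling, -0.05 with quantile normalization and 0.06 without scaling. The medians over all tested miRNAs were -0.19, 0.001, 0 and -0.08 in the same order. miR-322-5p and miR-503-5p are made from 1 X-linked cluster and known as cell cycle inhibitors of the miR-15/16 seed family. miR-322-5p was higher by 3.44 ± 0.27 (SE, n = 3 each), with a limma adjusted p of 0.00023. miR-503-5p was higher by 3.25 and miR-450a-5p by 1.23. These were named because they had the 3 highest differences of the 12. Skin values of miR-503-5p and miR-450a-5p lay at the floor, so their spread was not measured and no SE or p-value is given. Both are among the 8 called higher.

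miR-322-5p was called higher under all 5 scalings, and miR-98-5p, a let-7 family member, was called lower under all 5. So were miR-503-5p and miR-450a-5p as higher and miR-676-3p as lower. Those calls are a description, because a group of each lay at the floor in the main comparison. There miR-98-5p differed by -0.40 ± 0.08 and miR-676-3p, at the floor in wound, by -0.53. miR-224-5p, the next lowest, had a difference of 0.15, with skin values at the floor, and was not called.

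The tested miRNAs whose centred log2 profiles over the 6 arrays came closest to each cluster miRNA were found by the root mean square difference. For miR-532-5p these were miR-543-3p at 0.063, miR-425-5p at 0.085 and miR-152-3p at 0.098. For miR-500-3p they were miR-20a-5p at 0.079, miR-20b-5p at 0.085 and miR-542-3p at 0.096. For miR-188-5p they were miR-1904 at 0.139, miR-2135_v15.0 at 0.170 and miR-2145_v16.0 at 0.175. None of the 3 cluster miRNAs was among the closest of another. All profiles share the arrays and their scaling, so likeness here is a description.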

How the data were processed

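Per the labels, RNA was isolated with Trizol and labelled with Cy3. Agilent Feature Extraction 10.7.3.1 read the 6 arrays of 1 slide, per the file headers. The values deposited for each array are linear intensity, with no normalization between arrays: the processed signal of each spot after background subtraction, which falls below 0 for dim spots, and a total signal per miRNA. The authors also deposited log2 values for the 6 arrays. The series' design text names GeneSpring 14.5, with no settings. By value, a column of that table is the log2 total signal of 1 array less a constant (656 rows compared), but 0 of 6 column numbers match the numbers in the array titles. The scanner files therefore gave the main values.

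Processed signals were averaged over spots without outlier flags (2.14% to 3.11% of spots were flagged, 0 saturated), scaled, averaged over probes, floored and taken to log2 as described above. Of 690 names 222 were tested, 156 were detected on every array, 416 were detected on none, and 7 tested names lay at the floor on every array. Groups came from the array titles. They were compared by the two-sided test of limma 3.58.1 in R 4.3.3 (lmFit, then eBayes), with Benjamini-Hochberg adjustment over all tested miRNAs at a threshold of 0.05. The code was tested on simulated data. Figures were drawn with matplotlib 3.10.9.

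The members and lists were chosen with earlier results of these data known. Named miRNAs are all members, array names sharing a seed with a tested cluster miRNA, the 3 highest and 3 lowest differences of other tested X-linked miRNAs, and the 3 closest profiles of each cluster miRNA above background on all arrays. Alternatives covered scaling, normexp background correction with an offset of 50, total signal, summary over probes, floor, filter, limma with trend or array weights, the authors' table, slide row as a block and leaving out each array. Single probes and values within slide rows were added after the data were seen. Sequences and gene positions are RefSeq's, build GRCm38.p6, whose mature names matched 534 of the 690 array names.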

Additional observations from a re-analysis of the deposited data

How the results depend on the processing

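No paired analysis was possible, because the labels give only running array numbers and nothing that links wound arrays to skin arrays. Of 222 tested miRNAs 144 were called; the number was 78 with the floor raised 4 times, 22 with normexp and 1 in the authors' table with columns read by name, an alternative that mixes the groups, since by value those columns are arrays of other numbers; its values say nothing of the processing. It was 128 to 147 with 1 array left out. The 4 cluster calls became 0 under each other scaling, with normexp, with the higher floor and in the authors' table. Without a filter on dim miRNAs they became 2, miR-500-3p and miR-532-5p, where 110 of 690 names were called. With total signal miR-500-3p was not called (0.27, limma adjusted p 0.140), and the count stayed at 4 through miR-362-5p, undetected in skin. With 1 array left out the count was 3 to 4. The median difference over the 5 tested cluster names, 0.71, became 0.029 with scaling to all probes, 0.31 with median scaling, 0.021 with quantile normalization and 0.13 without scaling. It became 1.53 with normexp, 0.35 with the mean of log2 probe values, 0 with the higher floor, 0 without a filter, which adds undetected names at the floor, and 0.15 in the authors' table. With 1 array left out it was 0.63 to 0.77. The median over all tested miRNAs moved too, to 1.33 with normexp. The cluster median exceeded it there by 0.21, against 0.33 in the main comparison. That excess was 0.0016 with the mean of log2 probe values and 0.22 with scaling to all probes. It was 0.31 with median scaling, 0.021 with quantile normalization and 0.22 without scaling. miR-500-3p changed sign with scaling to all probes (-0.26), quantile normalization (-0.19) and no scaling (-0.15). miR-652-3p did so with scaling to all probes (-0.45), median scaling (-0.17), quantile normalization (-0.32), no scaling (-0.35), the authors' table (-0.062) and probe A_54_P2964 alone (-0.015). Relative to miR-652-3p, the differences of miR-188-5p, miR-500-3p and miR-532-5p turned to -0.15, -0.17 and -0.24 with the higher floor, which lies above most of their levels. With 1 array left out they were 0.35 to 0.81, 0.03 to 0.32 and 0.34 to 0.69. miR-362-5p, at 0 in the main comparison, was called higher with the brightest probe (0.92), the mean of log2 probe values (0.27) and a floor 4 times as low (1.45), each against skin values at the floor. The cause of the scaling dependence was not tested.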
